A study of Mus musculus with 20 samples.

Results

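Guanylin (Guca2a), uroguanylin (Guca2b) and guanylate cyclase C (Gucy2c) form 1 signalling unit of the gut epithelium, and their transcripts were followed here in mouse proximal colon organoids. The 3 genes were taken by the gene name that the array gives their probes, from 31473 gene names on the array and 21424 genes tested. Each is read by 1 probe with 1 spot per array. The organoids, grown in Matrigel from colon crypts of male mice of about 40 days, carried a heterozygous BrafV600E allele that Cre switches on. EV organoids, the controls, had received the lentiviral backbone alone, so they carried the allele without Cre. BRAF organoids had received Cre by lentivirus and are read here as profiled 5 months after induction. Selected organoids were BRAF organoids grown on in base medium, the culture medium without the stem-cell niche factors. The labels do not say whether a selected line came from the BRAF line of the same number. Each of these types had 3 numbered lines, and every line was profiled in both media, base and the one labelled ENSW, for 48 h each, which makes 6 groups of 3 arrays. Organoids labelled wild type gave 1 further array per medium and entered no test. Per the labels' growth protocol, organoids were cultured with EGF and with conditioned media for Noggin, Wnt3a and R-spondin. The labels number the lines but do not say whether they came from separate mice, so p-values measure the spread between these lines. Organoid cultures hold epithelium without the stroma, vessels and immune cells of the colon, and activation of the allele was not checked here.

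Guanylin and uroguanylin are small peptides that epithelial cells secrete into the gut lumen, guanylin mainly in the colon and uroguanylin mainly in the small intestine. Both bind guanylate cyclase C on the apical membrane, which then makes cyclic GMP. Cyclic GMP acts through the kinase of Prkg2 to open the chloride channel CFTR and to slow sodium uptake by the exchanger of Slc9a3, so that salt and water enter the lumen. In the human colon guanylin is known as a transcript that is lost early in tumours, while the receptor is often kept.

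The probes are shown because every value below rests on 1 of them each. The Guca2a probe lies at chr4:119311857-119311916 (mm9, plus strand), the Guca2b probe at chr4:119329250-119329309 (mm9, minus strand) and the Gucy2c probe within chr6:136646532-136648027 (mm9, minus strand). The 60 bases of the Gucy2c probe span 1496 bases of the genome, so this probe crosses an exon junction. For the ligands the first 30 of 60 bases are given.
Guca2a probe: tacgctgcctgtacgggatgctagagtgac
Guca2b probe: atcctcccagcataaatggatccttagcaa
Gucy2c probe: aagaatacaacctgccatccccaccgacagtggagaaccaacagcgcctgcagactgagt

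The 250 bases before the start of each ligand gene are shown because both ligands moved together in most comparisons below. They are the RefSeq promoters (GRCm38.p6) at chr4:119637482-119637731 on the plus strand for Guca2a and chr4:119658946-119659195 on the minus strand for Guca2b. The table gave promoters for 2 of the 3 genes, and none was printed for Gucy2c. Capitals mark matches, on either strand, to 3 motifs that were searched, and Guca2b held no match to them.
Guca2a promoter: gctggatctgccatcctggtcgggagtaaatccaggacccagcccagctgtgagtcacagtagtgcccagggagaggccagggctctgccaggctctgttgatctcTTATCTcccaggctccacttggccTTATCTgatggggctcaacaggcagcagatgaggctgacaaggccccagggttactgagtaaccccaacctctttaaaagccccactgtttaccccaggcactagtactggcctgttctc
Guca2b promoter: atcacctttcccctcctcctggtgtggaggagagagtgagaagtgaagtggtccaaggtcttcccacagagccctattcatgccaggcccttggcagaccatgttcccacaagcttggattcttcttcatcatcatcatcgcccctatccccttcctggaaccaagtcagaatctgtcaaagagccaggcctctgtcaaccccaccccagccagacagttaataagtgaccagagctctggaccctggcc

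Guca2a held 2 matches to the GATA motif AGATAA, at -144 and -120 from the start on the other strand, and 9.99% of 32851 promoters searched over the same 250 bases held one. Guca2b held none. Neither promoter held the CDX motif TTTATG (10.8% of promoters) or the TATA box TATAAA (12.4%). A match describes letters and does not show that a factor binds there, and no match says only that these letters are not in this window.

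Levels are log2 signals relative to the 75th percentile of their array, so a level of 0 equals that percentile and an increase of 1 means a doubling. Levels compare samples for 1 probe and cannot be set against those of another probe. Guca2a and Gucy2c were well above background on all 20 arrays. Guca2b was well above background on 14, and the 6 others were those of selected organoids. The epithelial markers Epcam, Cdh1, Krt8, Krt18 and Krt19 were well above background on every array. Of 7 mesenchymal markers 2 to 4 were well above background on an array, and Col1a1, Col3a1, Pdgfra and Dcn did not pass the filter on dim probes. Between 59.6% and 65.2% of an array's spots passed that mark.

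Guca2a was highest in EV organoids in base medium, where lines 1, 2 and 3 lay at 9.24, 8.83 and 9.34. The same lines lay at 5.73, 3.15 and 5.94 in ENSW medium. Base medium thus stood above ENSW medium in each of these lines, without overlap, and line 2 was the lowest in ENSW medium. The wild-type arrays lay at 9.30 in base and 5.96 in ENSW medium, near EV lines 1 and 3. In BRAF organoids Guca2a lay at 4.50, 6.10 and 5.92 in base medium and at 0.97, -1.47 and 2.11 in ENSW medium. Both BRAF groups lay below the EV group of the same medium without overlap, and line 2 was again the lowest in ENSW medium. Selected organoids had -3.87, -3.43 and -3.17 in base medium and -3.85, -3.63 and -3.41 in ENSW medium. These 6 values lay within a narrow band below all other arrays, and the media overlapped.

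Guca2b lay at 2.19, 3.89 and 3.64 in EV lines 1, 2 and 3 in base medium and at 1.58, 0.15 and 1.93 in ENSW medium. The groups did not overlap, but base line 1 stood only slightly above ENSW line 3. The wild-type arrays lay at 2.02 in base and 2.32 in ENSW medium, in the opposite order. In BRAF organoids Guca2b lay at 0.06, 0.78 and -0.91 in base medium and at -2.12, -5.20 and -2.06 in ENSW medium. Here too the BRAF groups stayed below the EV groups of the same medium, with the lowest value in line 2 in ENSW medium. Selected organoids gave -7.61, -7.86 and -6.91 in base medium and -7.01, -7.55 and -7.29 in ENSW medium. None of these 6 values was well above background, so they bound the level and have no order.

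Gucy2c took values over a narrower log2 range. In EV organoids it lay at 2.83, 2.78 and 2.99 in base medium and at 2.05, 1.05 and 1.80 in ENSW medium, without overlap. The wild-type arrays lay at 2.72 and 1.55 in base and ENSW medium, inside or close to those ranges. In BRAF organoids Gucy2c lay at 1.19, 1.03 and 1.32 in base medium and at 0.11, -0.50 and 0.21 in ENSW medium. Each BRAF group lay wholly below the EV group of its medium. Selected organoids had -1.02, -0.65 and 0.99 in base medium and -1.43, -0.94 and 0.63 in ENSW medium. Selected line 3 stood apart from lines 1 and 2 in both media and lay within the range of the BRAF organoids over both media.

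**Figure D1:**
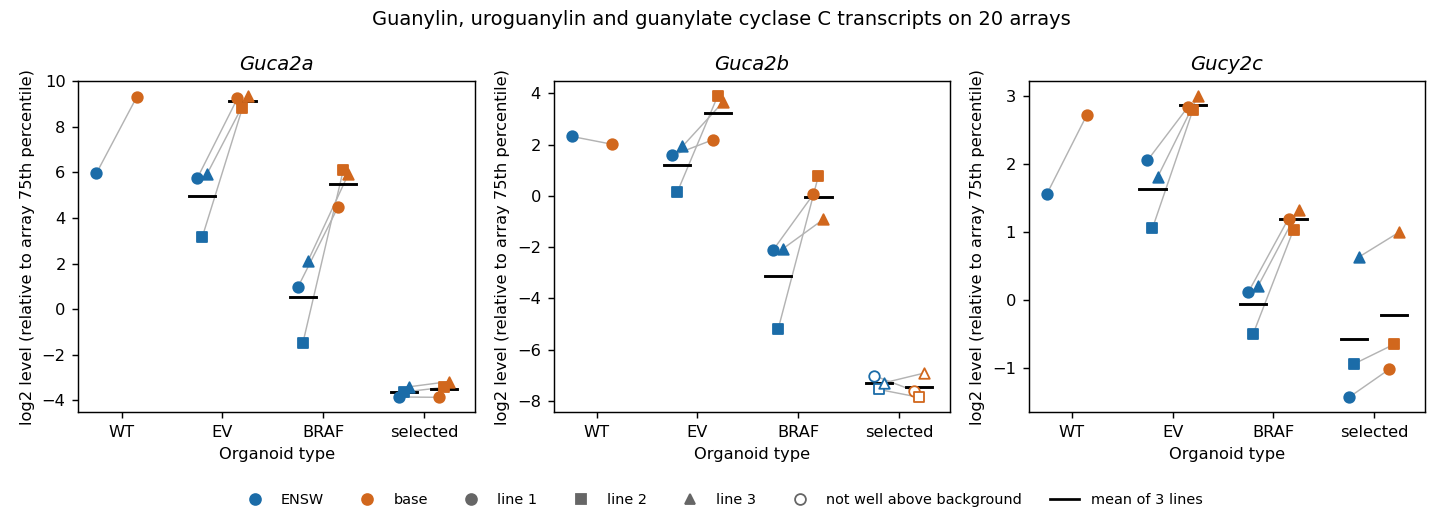
The log2 level relative to the array's 75th percentile (y axis) is plotted for Guca2a, Guca2b and Gucy2c by organoid type (x axis), with blue for ENSW and orange for base medium, 1 symbol per line, grey lines joining the media of 1 line and bars for the mean of 3 lines. Guca2a and Guca2b step down from EV to BRAF to selected organoids, open symbols mark arrays not well above background, and Gucy2c of selected line 3 (0.63 and 0.99) lies above lines 1 and 2.

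By group mean, Guca2a ran from EV in base medium (9.14 ± 0.27, SD, n = 3) over BRAF in base (5.51 ± 0.88) and EV in ENSW (4.94 ± 1.55) to BRAF in ENSW medium (0.54 ± 1.83) and then the selected groups (-3.49 ± 0.35 and -3.63 ± 0.22 in base and ENSW). BRAF in base and EV in ENSW medium did not pass a test of their difference (0.56 ± 0.81, SE, limma adjusted p = 0.669), nor did the 2 selected groups. For Guca2b the order was EV in base (3.24 ± 0.92), EV in ENSW (1.22 ± 0.94), BRAF in base (-0.02 ± 0.85) and BRAF in ENSW medium (-3.13 ± 1.80). EV in ENSW and BRAF in base medium did not pass that test (1.24 ± 0.76, SE, limma adjusted p = 0.277), nor did BRAF in base and BRAF in ENSW medium. Gucy2c took the same order of group means, from 2.87 ± 0.11 in EV in base medium over 1.63 ± 0.52, 1.18 ± 0.15 and -0.06 ± 0.38 to -0.23 ± 1.07 and -0.58 ± 1.08 in selected organoids in base and ENSW medium. No 2 neighbours in that order differed by a limma adjusted p under 0.05, with values from 0.0705 to 1.

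How control epithelium responds when the niche factors are withdrawn was read from EV organoids, as base minus ENSW medium. Both ligand transcripts rose and the receptor did not pass the test. Guca2a rose by 4.20 ± 0.81 on the log2 scale (SE, n = 3 lines per group, limma adjusted p = 0.000891), which is 18.3-fold, with differences of 3.51, 5.68 and 3.40 within lines 1, 2 and 3. Guca2b rose by 2.02 ± 0.76 (limma adjusted p = 0.0454, 4.06-fold), with 0.61, 3.74 and 1.72 within the lines. This call rested largely on line 2: without line 2 of every organoid type the difference was 1.16 (limma adjusted p = 0.112), and 4 of 6 omissions of a single array also ended it. Gucy2c differed by 1.24 ± 0.52 (limma adjusted p = 0.0705), higher in 3 of 3 lines by 0.78, 1.73 and 1.19. With the culture as a block, which uses that both media were run on the same line, Gucy2c rose by the same 1.24 ± 0.31 (limma adjusted p = 0.00317). That fit called 58.4% of all genes in this comparison. Without the block 2 of 3 genes were called higher, where 23.4% of all genes tested were called higher and 18.8% lower. Fewer cells of a type and less RNA per cell cannot be told apart in these bulk samples, here and in all comparisons that follow.

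In BRAF organoids Guca2a rose in base medium by 4.97 ± 0.81 (SE, n = 3 lines per group, limma adjusted p = 0.0124), which is 31.3-fold, with 3.53, 7.57 and 3.80 within lines 1, 2 and 3. The call was lost without the ENSW array of line 2 (3.96, limma adjusted p = 0.0573) and without the base array of line 2 (0.0742) or line 3 (0.0663). Guca2b differed by 3.10 ± 0.76 (limma adjusted p = 0.0561), with 2.18, 5.98 and 1.14 within the lines, and Gucy2c by 1.24 ± 0.52 (limma adjusted p = 0.222), with 1.08, 1.53 and 1.12. All 3 genes were thus higher in base medium in every line, but 1 of 3 passed the test, where 1.08% of all genes were called higher. With the culture as a block Guca2b (limma adjusted p = 0.0091) and Gucy2c (0.0147) passed as well. That fit called 4082 genes in place of 358.

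In selected organoids no difference between the media passed the test. Guca2a differed by 0.14 ± 0.81 between base and ENSW medium (SE, n = 3 lines per group, limma adjusted p = 1, 95% interval -1.59 to 1.87), with -0.02, 0.21 and 0.23 within the lines. Gucy2c differed by 0.36 ± 0.52 (limma adjusted p = 1), with 0.41, 0.29 and 0.37. Guca2b was not well above background in either medium and has no fold there. None of the 3 genes was called by limma, and 0 of 3 had an unadjusted p under 0.05, where 1 of 21424 genes was called (0.00467%).

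The response of Guca2a to the medium was smaller in selected than in EV organoids by 4.06 ± 1.14 (SE, limma adjusted p = 0.0191), in a comparison of responses in which 10.4% of all genes were called lower and 13.8% higher. Base minus ENSW ran from 3.40 to 5.68 in the EV lines and from -0.02 to 0.23 in the selected lines, so the lines did not overlap. On the selected arrays Guca2a was low, at -3.87 to -3.17, though well above background. Selected organoids had been grown on in base medium, so base minus ENSW need not be a withdrawal in them as in EV organoids. The response of Gucy2c differed by -0.88 ± 0.74 (limma adjusted p = 0.430), not past the threshold, and Guca2b has no measured response in selected organoids. Between BRAF and EV organoids the responses differed by 0.77 ± 1.14 for Guca2a, 1.08 ± 1.08 for Guca2b and 0.01 ± 0.74 for Gucy2c, none of them past the threshold, where 3.53% of all genes were called. For selected against BRAF organoids the response of Guca2a differed by -4.83 ± 1.14 (limma adjusted p = 0.376) and 0 of 21424 genes were called by limma, with 1799 at an unadjusted p under 0.05. With the culture as a block this difference passed the test (limma adjusted p = 0.0245), one of 354 genes called there.

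BRAF organoids were compared with EV organoids to see what the activated allele, with Cre, changes. Both ligands fell in both media. In ENSW medium Guca2a fell by 4.40 ± 0.81 (SE, n = 3 lines per group, limma adjusted p = 0.00678), a 21.2-fold lower signal, and Guca2b fell by 4.35 ± 0.76 (limma adjusted p = 0.00543), 20.3-fold. Gucy2c differed by -1.69 ± 0.52 (limma adjusted p = 0.0683), a 3.24-fold lower signal whose groups did not overlap. With the culture as a block this difference passed (limma adjusted p = 0.0397, where 6.17% of all genes were called). Thus 2 of 3 genes were called lower where 1.41% of all genes were called lower and 4.8% higher.

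In base medium Guca2a fell by 3.63 ± 0.81 (SE, n = 3 lines per group, limma adjusted p = 0.0042, 12.4-fold), Guca2b by 3.27 ± 0.76 (limma adjusted p = 0.00563, 9.62-fold) and Gucy2c by 1.69 ± 0.52 (limma adjusted p = 0.0247, 3.22-fold). All 3 genes were called lower in base medium, where 13.1% of all genes were called lower and 17.9% higher. Gucy2c lost its call without EV line 1 (limma adjusted p = 0.0566), EV line 3 (0.0744), BRAF line 1 (0.0607) or BRAF line 2 (0.0651) in base medium, though its value stayed within -1.76 to -1.61. EV arrays shared no slide with BRAF or selected arrays, so in comparisons with EV organoids the slide cannot be told apart from the type. A time after induction is given for BRAF organoids only. Any difference in time in culture thus cannot be told apart from the type, here and in comparisons with selected organoids.

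Selected organoids had the lowest ligand levels of all. Against EV organoids Guca2a fell by 8.57 ± 0.81 in ENSW medium (SE, n = 3 lines per group, limma adjusted p = 3.16e-05, 380.4-fold) and fell by 12.63 ± 0.81 in base medium (limma adjusted p = 1.53e-07, 6332-fold). Guca2b, not well above background on any selected array, was at least 97.8-fold lower in ENSW medium (limma adjusted p = 1.85e-05) and at least 406.6-fold lower in base medium (limma adjusted p = 3.57e-07). These bounds set the EV mean against the lowest signal well above background on each selected array and hold for this processing. The p-values beside them come from the fit to the measured signals and do not test the bounds. With normexp background correction, which adds an offset of 50 and compresses dim signals, the differences of Guca2b were -3.83 and -5.67 and those of Guca2a -6.78 and -10.61, all still past the threshold. The receptor fell as well, Gucy2c by 2.22 ± 0.52 in ENSW medium (limma adjusted p = 0.0142, 4.65-fold) and by 3.10 ± 0.52 in base medium (limma adjusted p = 0.000219, 8.55-fold). The call in ENSW medium was lost without EV line 1 (limma adjusted p = 0.0657), EV line 3 (0.0559), selected line 1 (0.0582) or selected line 2 (0.0559). All 3 genes were called lower in both media, against 5.15% of all genes in ENSW and 23.2% in base medium.

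Selected and BRAF organoids were compared to see what selection in base medium adds. In base medium Guca2a fell by 8.99 ± 0.81 (SE, n = 3 lines per group, limma adjusted p = 1.85e-05, 509.8-fold), and Guca2b was at least 42.3-fold lower (limma adjusted p = 6.52e-05). Gucy2c differed by -1.41 ± 0.52 (limma adjusted p = 0.103, 95% interval -2.52 to -0.30), with groups that did not overlap and with -2.22, -1.68 and -0.33 between lines of equal number. In this pair of types arrays of equal line number deviated together, and with that number as a block shared by BRAF and selected lines Gucy2c fell by the same 1.41 ± 0.38 (limma adjusted p = 0.029, where 14.2% of all genes were called). Without selected line 3 in base medium the difference of Gucy2c was -2.02 (limma adjusted p = 0.026). So 2 of 3 genes were called lower where 5.14% of all genes were called lower.

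In ENSW medium Guca2a fell by 4.17 ± 0.81 (SE, n = 3 lines per group, limma adjusted p = 0.0339, 18-fold) and Guca2b was at least 4.81-fold lower (limma adjusted p = 0.0256), 2 of 3 genes called lower where 0.453% of all genes were. Gucy2c differed by -0.52 ± 0.52 (limma adjusted p = 0.803, 95% interval -1.64 to 0.59) and its groups overlapped. Both ligand calls in ENSW medium were lost with normexp (Guca2a -2.60, limma adjusted p = 0.16, Guca2b -0.84, 0.615), with the authors' deposited log2 values (-3.27, 0.0729 and -1.50, 0.308), with the culture as a block (-4.17, 0.0672 and -4.16, 0.0875), with slide as a fixed block and without any selected array or without BRAF line 1 or 3. With the line number as a block both remained called (0.0235 and 0.0203). Selected line 3 and BRAF line 1 lay on 1 slide. On it the selected line minus the BRAF line was -4.37 in ENSW and -7.67 in base medium for Guca2a, and 0.52 and -0.20 for Gucy2c. Guca2b was not well above background in that selected line.

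**Figure D2:**
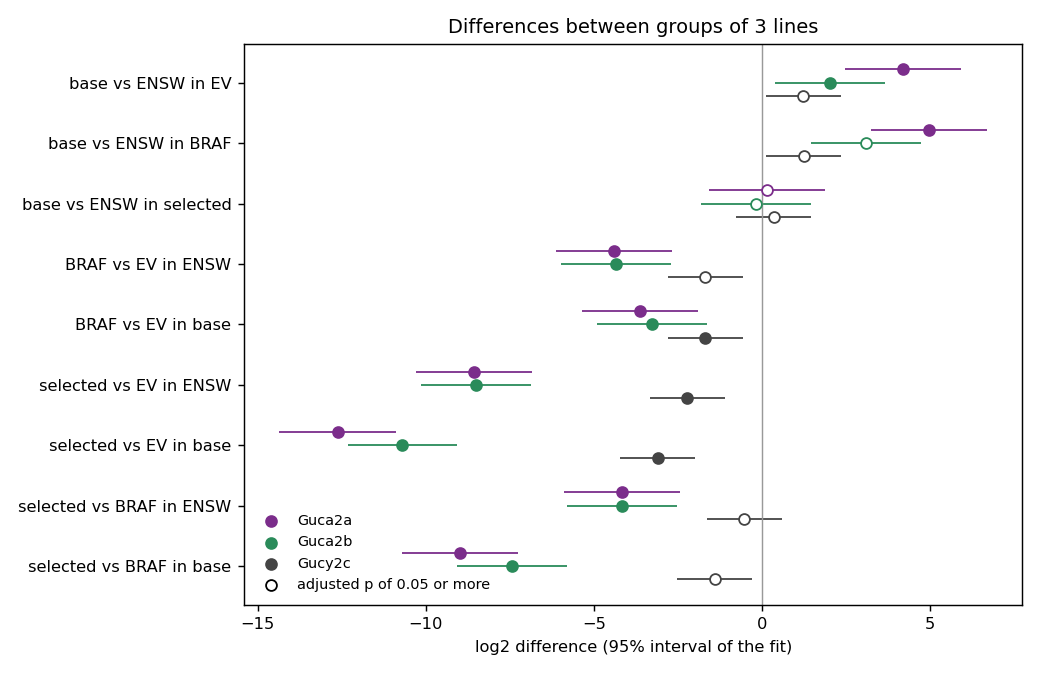
Log2 differences between groups of 3 lines (x axis) with the 95% interval of the limma fit (bars) are plotted for Guca2a, Guca2b and Gucy2c in 9 comparisons, filled where the adjusted p is under 0.05. Both ligands are lower in BRAF and in selected than in EV organoids in both media, with differences from -12.63 to -3.27, while the differences of Gucy2c are smaller, from -3.10 to 1.24.

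Across the 18 arrays Guca2a and Guca2b correlated at r = 0.979, which gave Guca2a rank 3 of 16067 genes by likeness to Guca2b and Guca2b rank 13 by likeness to Guca2a. Gucy2c correlated with them at 0.894 and 0.872. The arrays share 6 group means, and within groups, after the means were removed, the same values were 0.715, 0.466 and 0.349, and the first of them gave ranks 18 and 114. The genes most like Guca2a over 18 arrays were Themis3 (r = 0.988), Thy1, Btnl5-ps, Cideb and the butyrophilin-like gene Btnl4 (0.983). Nearest to Guca2b, after Gm5485 (0.987), came the steroid dehydrogenase gene Hsd3b3 (0.980), then Guca2a, Clec2h and the bile acid receptor gene Nr1h4 (0.977). Those nearest to Gucy2c were Cds1 (0.978), a phospholipid synthesis enzyme, the sodium pump subunit gene Atp1b1, the sulfate transporter gene Slc26a2, Lclat1 and Cyp2c55 (0.959). These correlations are descriptions over arrays of 6 groups. Guca2b was well above background on 12 of the 18 arrays. Its values on the selected arrays, which have no order, enter its correlations both over all arrays and within groups. Gm5485, Hsd3b3, Clec2h and Nr1h4 also lay low in selected organoids, with group means from -7.67 to -6.44. How much of their likeness to Guca2b comes from these low values was not tested.

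Guca2a and Guca2b are direct neighbours on chromosome 4 in the RefSeq gene order, with 0 measured genes between them. The nearest measured gene beyond Guca2b is Edn2, which encodes endothelin 2. Like the ligands, Edn2 rose in EV organoids in base medium (3.43 ± 0.74, SE, limma adjusted p = 0.00205) and was lower in BRAF than in EV organoids, by 3.42 in ENSW (limma adjusted p = 0.0166) and 5.34 in base medium (0.000215). It was also lower in selected than in EV organoids, with -2.53 (limma adjusted p = 0.0369) and -4.82 (0.000103), but between selected and BRAF organoids it differed by 0.89 and 0.51, not past the threshold. Both ENSW calls of Edn2 were lost with normexp (-0.64 and -0.54), with the authors' deposited log2 values (-1.26 and -1.06) and without EV line 1 or 3, and that against BRAF also without BRAF line 2, that against selected organoids also without any selected line. On the other side Foxj3, a forkhead factor gene, fell against EV organoids in base medium, by 1.14 in BRAF (limma adjusted p = 0.000646) and 1.57 in selected organoids (1.5e-05), and did not pass the test in ENSW medium. Beyond it Frg2f1 (-1.65, limma adjusted p = 0.0375, and -2.94, 0.000582) and Rimkla (-3.71, 0.000632, and -5.60, 7.54e-06) were lower in base medium as well. Rimkla was also called lower in BRAF organoids in ENSW medium (-2.36, limma adjusted p = 0.0371), a call lost with normexp (-0.16) and in each of 6 omissions of a single array, and that of Frg2f1 in BRAF organoids was lost in 5 of 6. Of the remaining neighbours Foxo6 passed in no comparison and Scmh1 moved the other way in base medium, higher by 1.26 in BRAF (limma adjusted p = 0.00453) and by 1.91 in selected organoids (7.76e-05). So 4 of 6 neighbours of the ligand genes were called lower than EV in base medium in each type, against 13.1% of all genes in BRAF and 23.2% in selected organoids. Around Gucy2c none of the 6 nearest measured genes, Eif4a3l1, Atf7ip, Plbd1, H4f16, H2aj and Wbp11, was called lower in BRAF or selected than in EV organoids. Of all genes, 13.1% and 23.2% were called lower there in base medium, and 1.41% and 5.15% in ENSW medium. Eif4a3l1, Atf7ip, H2aj and Wbp11 were called higher in selected organoids in base medium, by 0.76 to 1.57, where 25% of all genes were called higher.

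Downstream of the receptor, 26 genes of cyclic GMP signalling and ion transport were listed and 23 were tested. In EV organoids in base medium 9 were called higher and 3 lower, where 23.4% and 18.8% of all genes were, with a median difference of 0.41 against 0.19 over all genes tested. The kinase gene Prkg2 rose by 1.82 ± 0.63 (SE, limma adjusted p = 0.0308), a call that 5 of 6 omissions of a single array ended. Pdzd3, a scaffold protein known to bind guanylate cyclase C, rose by 3.69 ± 1.11 (limma adjusted p = 0.0157). Its EV levels in ENSW medium ran from -7.84 to -2.32, with 2 of 3 arrays well above background. The size of its rise thus depends on a background signal. Slc9a3r1, a scaffold for CFTR and the sodium exchanger, rose by 2.37 ± 0.44 (limma adjusted p = 0.000732). The anion exchanger gene Slc26a3 rose by 3.74 ± 1.05 (limma adjusted p = 0.0104). Cftr moved the other way: EV lines 1, 2 and 3 lay at -0.03, -0.65 and -0.16 in ENSW and at -2.39, -2.15 and -4.07 in base medium, a fall by 2.59 ± 0.54 (limma adjusted p = 0.00166). Slc12a2, which loads epithelial cells with chloride, fell by 3.02 ± 0.67 (limma adjusted p = 0.00241), and Abcc4, an exporter of cyclic nucleotides, by 1.05 ± 0.31 (0.0133). Without EV line 3 in base medium Pdzd3 (3.23, limma adjusted p = 0.0692) and Abcc4 (-0.80, 0.0756) lost their calls, and Pdzd3 also without EV line 1 there (0.0504). In BRAF and in selected organoids 0 of 23 were called between the media by limma, with 4 and 1 at an unadjusted p under 0.05.

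Against EV organoids in base medium, 2 of 23 were called higher and 5 lower in BRAF organoids, where 17.9% and 13.1% of all genes were, with a median of -0.31 against 0.03 over all genes. In selected organoids 2 were called higher and 9 lower, where 25% and 23.2% of all genes were, with a median of -0.33 against 0.02. Slc9a3, the sodium exchanger that the pathway restrains, lay at 1.72 to 3.27 in EV organoids and at -7.31 to -3.09 in BRAF organoids, a fall by 7.36 ± 1.82 (SE, limma adjusted p = 0.00779) that did not pass without line 2 of every type (-6.52, 0.055). In selected organoids it lay at -7.74 to -2.20 and fell by 8.41 ± 1.82 (limma adjusted p = 0.00157), with 1 of 3 selected arrays well above background. Pdzd3 was not well above background on any BRAF or selected array, at least 32.6-fold lower in BRAF (limma adjusted p = 0.00169) and at least 30.9-fold lower in selected organoids (0.000151). Slc9a3r1 fell by 1.55 ± 0.44 in BRAF (limma adjusted p = 0.0169) and fell by 2.76 ± 0.44 in selected organoids (0.000148). Cftr was higher, by 2.56 ± 0.54 in BRAF (limma adjusted p = 0.00314) and by 1.73 ± 0.54 in selected organoids (0.0164). Without EV line 3 Slc9a3r1 in BRAF (-1.15, limma adjusted p = 0.0889) and Cftr in selected organoids (1.13, 0.0933) lost their calls, as did Slc9a3r1 without BRAF line 1 (-1.01) and Cftr without selected line 3 or with normexp (0.93). The kinase gene Prkg2 did not pass the test in any comparison between types, with 0.80 ± 0.63 in BRAF and -0.48 ± 0.63 in selected organoids against EV in base medium. In ENSW medium its group means were 1.78 in BRAF (limma adjusted p = 0.119) and 1.66 in selected (0.104) against 0.06 in EV organoids, without overlap. The cyclic GMP phosphodiesterase gene Pde5a passed in none of the 12 comparisons, with a smallest limma adjusted p of 0.118.

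In ENSW medium fewer genes of the list were called, as were fewer of all genes (6.22% against 31% in base medium for BRAF and 13.8% against 48.2% for selected against EV organoids). Against EV organoids 0 of 23 were called higher and 2 lower in BRAF organoids, Slc26a3 (at least 22.9-fold lower, limma adjusted p = 0.00736) and the kinase subunit gene Prkar2a (-0.68 ± 0.16, SE, limma adjusted p = 0.0215). In selected organoids 2 were called higher, Prkacb and Slc9a3r2, and 3 lower, Slc26a3, Prkar2a and Vasp, the last a substrate of the cyclic GMP kinase. Selected against BRAF organoids gave 0 limma calls in ENSW medium, with 3 genes at an unadjusted p under 0.05, and 3 lower in base medium, Slc26a3, Abcc4 and Vasp, where 5.14% of all genes were. With the line number of BRAF and selected organoids as a block, 1 and 5 were called, where 1.46% and 14.2% of all genes were. Prkar2a in BRAF against EV organoids lost its call without line 1 or 3 of either type (-0.68 to -0.59), and Slc26a3 lost it with normexp (-2.14). In selected against BRAF organoids in base medium Slc26a3 lost its call with normexp (-0.67), with the authors' deposited log2 values (-1.38), with slide as a fixed block (-3.09) and in 5 of 6 omissions of a single array, and Abcc4 in 3 of 6. Vasp lost it there with slide as a fixed block (-1.27), and Slc9a3r2 in selected against EV organoids in 5 of 6 omissions. Among 14 genes of other guanylate cyclases and natriuretic peptides 7 were tested, and Npr2, Gucy1b2 and Nppa were the ones called in any comparison between a pair of groups, by at most 0.90, and each of their calls was lost in 1 to 4 of 6 omissions of a single array.

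**Figure D3:**
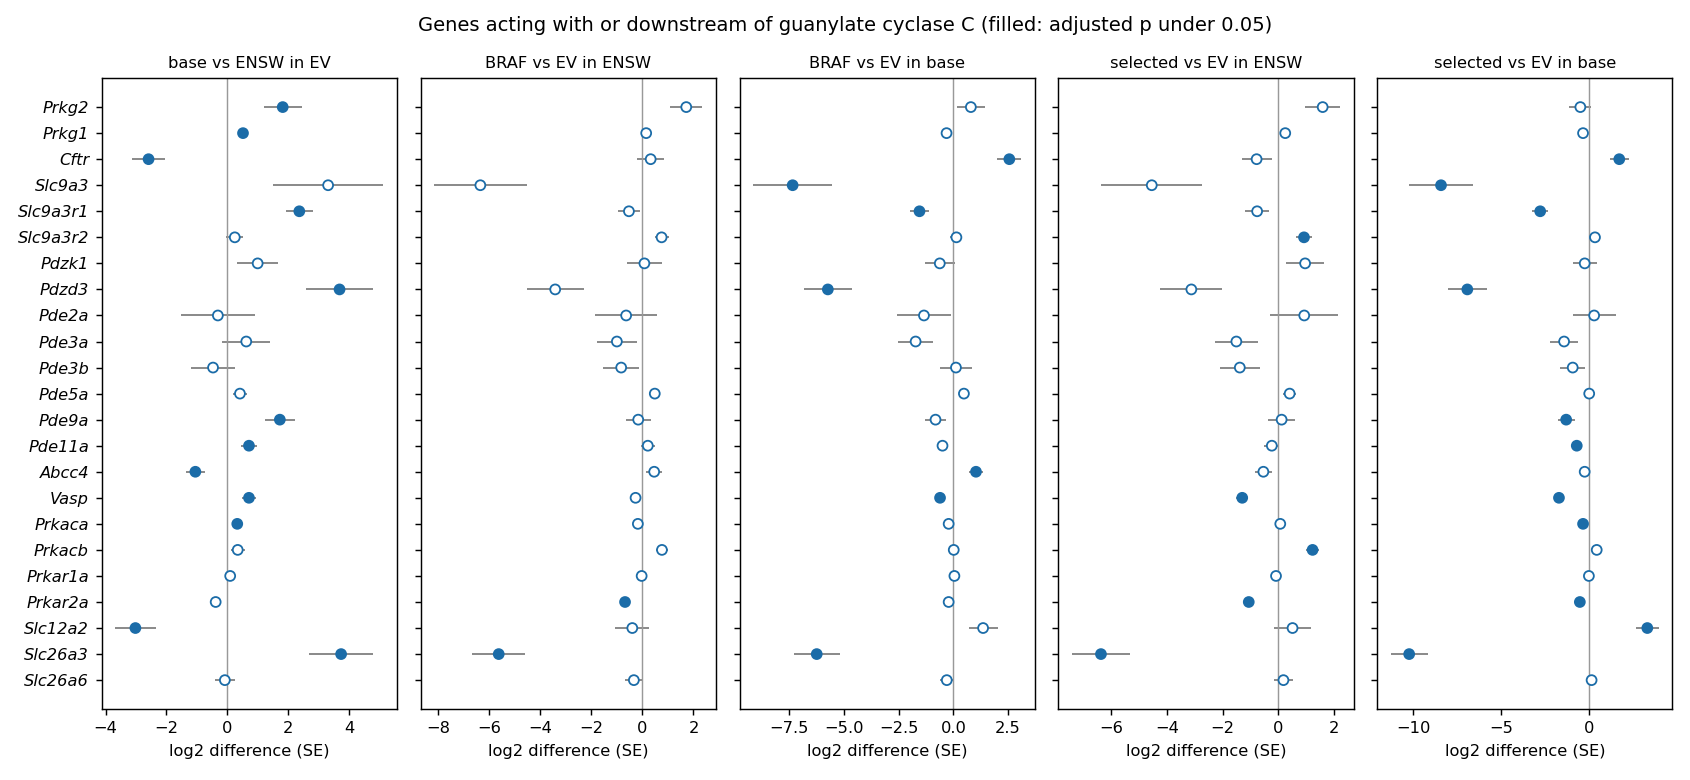
Log2 differences with the SE of the limma fit (x axis, its range differing between panels) are plotted for 23 genes acting with or downstream of guanylate cyclase C (rows) in 5 comparisons, filled where the adjusted p is under 0.05. In EV organoids in base medium Pdzd3, Slc26a3 and Slc9a3r1 lie to the right and Cftr and Slc12a2 to the left of 0, and in BRAF and selected organoids against EV in base medium Slc9a3, Pdzd3 and Slc26a3 lie far to the left.

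Transcription factors of the intestinal epithelium were listed for their role in differentiated gut cells, and 15 of 15 were tested. Against EV organoids 1 was called higher and 8 lower in selected organoids in base medium (25% and 23.2% of all genes), and 0 and 5 in ENSW medium (8.7% and 5.15%). In BRAF organoids 1 was called higher and 2 lower in base medium (17.9% and 13.1% of all genes), and 0 and 1 in ENSW medium (4.8% and 1.41%). The one called higher was Hes1, a target of Notch signalling, by 0.94 ± 0.24 in selected (SE, limma adjusted p = 0.00496) and 0.72 ± 0.24 in BRAF organoids (0.0348, lost in 3 of 6 omissions of a single array and with normexp, 0.42). Hnf4a, a nuclear receptor gene of differentiated gut epithelium, lay at 6.48, 6.13 and 6.98 in EV and at 5.68, 5.88 and 6.32 in BRAF organoids in base medium. In selected organoids it lay at 1.42, 3.81 and 3.16, so all selected lines were below the others and line 1 lowest. It fell in selected against EV organoids by 3.44 ± 0.62 in ENSW (SE, limma adjusted p = 0.0035) and 3.74 ± 0.62 in base medium (0.000205). Against BRAF organoids it fell by 3.17 ± 0.62 in base medium (limma adjusted p = 0.00682), a call lost with slide as a fixed block (-2.78, 0.138), and in ENSW medium the difference was -2.73 ± 0.62 (0.0735, or 0.0229 with the line number of BRAF and selected organoids as a block). Between BRAF and EV organoids Hnf4a differed by -0.71 ± 0.62 in ENSW (limma adjusted p = 0.558) and -0.57 ± 0.62 in base medium (0.518, 95% interval -1.91 to 0.76), not past the threshold.

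Cdx2, a homeobox factor gene whose product is known to activate the guanylate cyclase C gene in human intestinal cells, had no difference between types above 1.44 on the log2 scale. In ENSW medium it lay at 5.39, 5.39 and 5.11 in EV, at 4.19, 3.82 and 4.85 in BRAF and at 4.17, 4.42 and 3.88 in selected organoids. BRAF and selected organoids overlapped, and both lay below EV organoids, by 1.01 ± 0.25 (SE, limma adjusted p = 0.029) and 1.14 ± 0.25 (0.00934). In base medium Cdx2 rose in BRAF organoids by 1.39 ± 0.25 (limma adjusted p = 0.0185) and in EV organoids by 0.64 ± 0.25 (0.0495), and then differed between BRAF and EV organoids by -0.26 ± 0.25 (0.451). Selected organoids lay below EV organoids by 1.44 ± 0.25 (limma adjusted p = 0.000251) and below BRAF organoids by 1.18 ± 0.25 (0.00944) in base medium, and leaving out a single array ended neither call, nor that of selected against EV organoids in ENSW medium. The others were less stable: leaving out a single array ended the ENSW call of BRAF against EV organoids in 5 of 6 cases, the call between media in 3 of 6 in BRAF and in 6 of 6 in EV organoids. Its close relative Cdx1 was lower in selected than in EV organoids, with -10.10 ± 1.91 in ENSW (limma adjusted p = 0.00447) and -9.75 ± 1.91 in base medium (0.000748), though selected line 3 was not well above background in either medium, so 2 of 3 arrays measured it. The BRAF lines differed widely for Cdx1, at 2.59, -6.34 and -1.04 in base medium, with line 2 not well above background. All lay below the EV lines there, with a difference of -6.74 ± 1.91 (limma adjusted p = 0.0162) that did not pass without BRAF line 2 (-4.37, 0.0691).

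**Figure D4:**
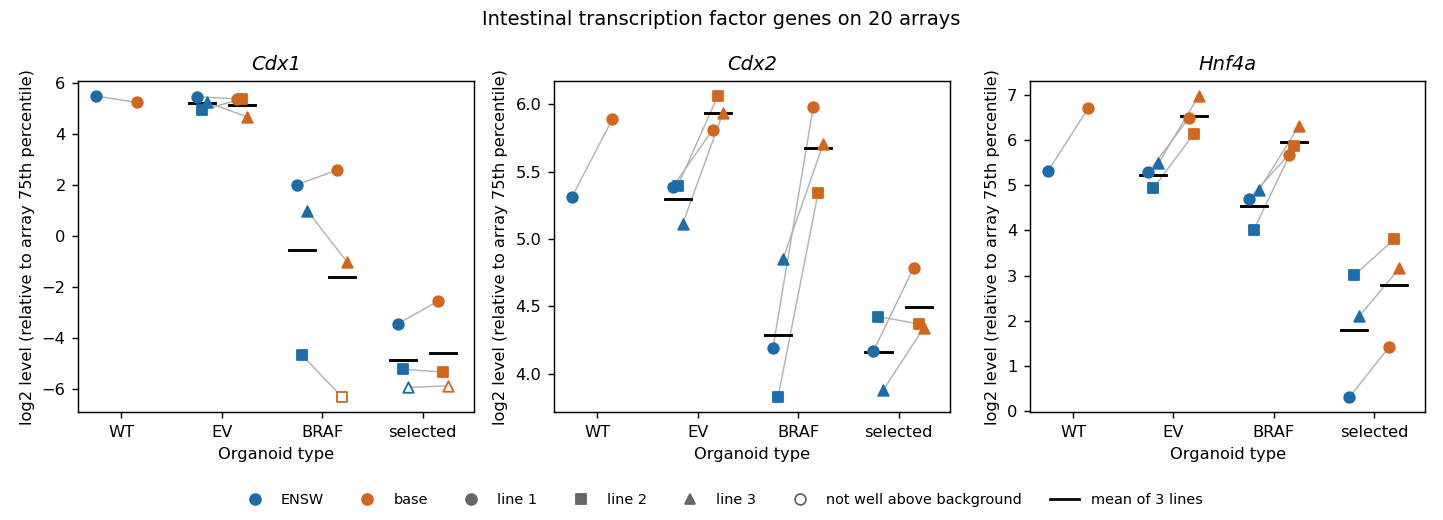
The log2 level relative to the array's 75th percentile (y axis, its range differing between panels) is plotted for Cdx1, Cdx2 and Hnf4a by organoid type (x axis), with blue for ENSW and orange for base medium, 1 symbol per line, open symbols for arrays not well above background and bars for the mean of 3 lines. Hnf4a lies between 4.02 and 6.98 in EV and BRAF organoids and between 0.30 and 3.81 in selected organoids.

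Markers of other epithelial states changed in some of the same comparisons as the ligands, and their part in these results was not tested. The shares of all genes called are those given above for each comparison. Of 14 colonocyte markers 11 were called higher in EV organoids in base medium and 0 lower, and 4 and 0 in BRAF organoids. Against EV organoids 0 were called higher and 9 lower in BRAF (17.9% and 13.1% of all genes), and 0 and 11 in selected organoids (25% and 23.2%) in base medium. In ENSW medium 0 were called higher and 4 lower in BRAF (4.8% and 1.41% of all genes), and 1 and 8 in selected organoids (8.7% and 5.15%). The summed level of these 14 markers ran from 10.14 to 11.24 in EV, from 8.12 to 9.19 in BRAF and from 6.04 to 7.08 in selected organoids in base medium. Summed levels, here and below, add the signals of all markers of a list before the log2, so the brightest probes weigh most. Of these markers, Car1 alone had a mean of 9.30 in EV organoids in base medium. Krt20, a keratin of surface colonocytes, rose with base medium by 4.63 ± 1.17 in EV (SE, limma adjusted p = 0.00561) and 5.15 ± 1.17 in BRAF organoids (0.0437), as Guca2a did. Between BRAF and EV organoids it was lower too but did not pass the test (-2.76 ± 1.17, limma adjusted p = 0.175, in ENSW and -2.25 ± 1.17, 0.16, in base medium). In base medium it lay at 4.34 to 6.50 in BRAF and at 6.81 to 8.40 in EV organoids, without overlap, and in ENSW medium the groups overlapped. The call of Krt20 in BRAF organoids was lost in 5 of 6 omissions of a single array (limma adjusted p up to 0.201). Goblet cell markers were split between the media. Of 13, 3 were called higher and 1 lower in EV organoids in base medium, and 0 by limma in BRAF organoids (1 at an unadjusted p under 0.05), where their median difference was -1.20. By group mean Zg16, Fcgbp and Clca1 were higher in base than in ENSW medium in both types. Agr2, Spink4, Spdef, Ang4, Reg4 and Retnlb were lower in both, the last not well above background on any BRAF array. Muc2, Tff3, Sytl2 and Atoh1 were higher in EV and lower in BRAF organoids. Of these 13, 2 were called lower in BRAF organoids in ENSW and 6 in base medium, and 9 in selected organoids in each, all against EV organoids, with 0 higher. Their summed level ran from 8.23 to 9.25 in EV, 3.60 to 5.59 in BRAF and 0.65 to 4.55 in selected organoids in base medium. Of 10 enteroendocrine markers 2 were called higher and 0 lower in EV organoids in base medium and 0 by limma in BRAF organoids (0 at an unadjusted p under 0.05). Against EV organoids 6 were called lower in BRAF and 10 in selected organoids in base medium, with medians of -3.58 and -4.71, and 0 and 5 in ENSW medium, with 0 higher. Their summed level ran from 2.44 to 6.55 in EV, -0.56 to 3.76 in BRAF and -1.43 to -1.18 in selected organoids in base medium. Of 8 proliferation markers 8 were called lower in EV organoids in base medium, 7 were called higher in BRAF than in EV organoids there, and 8 in selected organoids. In ENSW medium 0 of 8 proliferation markers were called between BRAF and EV organoids by limma, and 0 had an unadjusted p under 0.05. Their summed level in ENSW medium ran from 6.24 to 6.37 in EV, 5.19 to 6.33 in BRAF and 5.90 to 6.03 in selected organoids.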

How the data were processed

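Total RNA of 20 organoid samples was hybridised as Cy3-labelled cRNA, 1 array each. The scanner files hold fluorescence intensity per spot, from Feature Extraction 10.7.3.1 per the file headers, with probe positions on mm9. A further table deposited by the authors holds log2 values, and its columns rank probes as the median signal does. Its normalization is not given in the sources used here, and the submitters' processing notes name limma. Column medians of that table lie between 5.66 and 5.68.

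From each array's 43020 spots other than controls, 48 spots flagged as non-uniform over all arrays were left out, and 0 were saturated. The background-subtracted signal was put on the log2 scale, the array's 75th percentile was subtracted and repeated spots were averaged. The filter kept 26827 probes, each well above background on 3 or more of 18 arrays, and the brightest stood for each gene (21424). Names came from RefSeq accessions for 26581 probes, symbols for 2597 and older symbols for 492, and 9759 kept the name in the files. A model of 6 group means was fitted to the 18 arrays other than wild type in R 4.3.3 by lmFit and eBayes of limma 3.58.1 (12 residual degrees of freedom), with Benjamini-Hochberg adjustment over all genes of each of 12 contrasts and a threshold of 0.05. For "at least N-fold", each array of the dim group stood at its lowest signal well above background, or at the probe's own signal where that was higher. A p-value printed with such a bound is that of the limma fit to the measured signals, dim ones included, and the bound itself was not tested. The fit was tested on simulated data. Tables and plots used matplotlib 3.10.9, pandas 2.3.3, numpy 2.4.6 and Python 3.11.15. The number of arrays limits the precision.

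The 3 genes and all lists were chosen with earlier results of these data known. Named genes are the 3 genes in every contrast, up to 4 called members per list and contrast by smallest adjusted p, the 5 most correlated genes of each, the 3 nearest measured genes on either side, and Cdx2, Hnf4a, Cftr, Prkg2, Krt20, Muc2, Lgr5 and Mki67, of which part is printed. Pde5a, Slc9a3r2 and Hes1 in BRAF organoids, and the values of Pdzd3, Abcc4, Slc9a3, Slc9a3r1 and Cdx1 in comparisons where they fall outside that rule, were chosen after their values were seen. Both media of a line are 1 culture per the labels. Deviations from group means correlated within cultures at r = 0.42 to 0.87 over 9 pairs, so the culture was used as a block in an alternative fit. Between BRAF and selected organoids equal line numbers correlated at 0.10 to 0.37 over 12 pairs and unequal ones at -0.26 to 0.10 over 24, so the number pairs these types, though the labels do not say so, and a block of it was added after seeing the data. Equal numbers of EV and BRAF organoids correlated at -0.03 to 0.21 over 12 pairs, and unequal ones at -0.23 to 0.17. For EV and selected organoids the ranges were -0.08 to 0.09 and -0.12 to 0.11. These ranges overlap, so they cannot tell whether EV lines pair with the other types. The sample titles give EV, BRAF and selected lines of equal number the same stem. The 10 other settings tried are in the closing section.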

Additional observations from a re-analysis of the deposited data

Results flagged for a closer look

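The response of Guca2a to base medium differed between selected and EV organoids by -4.06 ± 1.14 on the log2 scale (SE, limma adjusted p = 0.0191). It was the one result of the 3 genes for which the response itself differed between organoid types by this test. Over all settings tried this difference kept its sign and its call, from -4.56 to -3.16. Selected organoids had been grown on in base medium, so the 2 types need not have met the same change of medium.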

How the results depend on the processing

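No difference of the 3 genes that passed the test changed sign under any setting tried. Ligand falls in BRAF and selected against EV organoids, those in selected against BRAF organoids in base medium, the rise of Guca2a in EV organoids and the fall of Gucy2c in selected against EV organoids in base medium passed under every setting. With normexp and quantile normalization Guca2a (-2.60) and Guca2b (-0.84) no longer passed in selected against BRAF organoids in ENSW medium, nor did they with the authors' deposited log2 values (-3.27 and -1.50), with slide as a fixed block (-3.61 and -4.44) or with the culture as a random block (-4.17 and -4.16). The cause was not tested. Guca2b in EV organoids between media lost its call with quantile normalization (1.92), without the filter on dim probes (2.02) and with slide as a fixed block (2.02), and in BRAF organoids it gained one with the authors' values (2.36) and with culture or slide as a random block (3.10).

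The replicate block, with the line number as a fixed term, gained calls for Gucy2c between media in EV organoids (1.24), in BRAF against EV organoids in ENSW medium (-1.69) and in selected against BRAF organoids in base medium (-1.41), and changed no other call of the 3 genes. The replicate block of BRAF and selected lines alone, chosen after seeing the data, also gained the last of these (-1.41) and changed no other call of the 3 genes between these types. Over all genes it called 313 in place of 130 in ENSW and 3049 in place of 2094 in base medium. The culture as a random block (correlation 0.53) gained Gucy2c between media in EV and BRAF organoids (1.24 each) and in BRAF against EV organoids in ENSW medium (-1.69), and Guca2a in the response of selected against BRAF organoids (-4.83). Over all genes this block called 12509 in place of 9036 between media in EV organoids. Slide as a random block (correlation 0.17) gained Gucy2c between media in EV organoids (1.24) and in BRAF against EV organoids in ENSW medium (-1.82), and as a fixed block between media in EV and BRAF organoids (1.24 each). Slide as a fixed block could not be fitted for comparisons with EV organoids.

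Without line 2 of every type, chosen after seeing the data, Guca2b between media in EV (1.16), Guca2a between media in BRAF (3.67) and Gucy2c in BRAF against EV in base (-1.65) and selected against EV in ENSW medium (-2.33) lost their calls. Leaving out 1 array gave these ranges: selected against BRAF in ENSW medium -5.17 to -3.38 for Guca2a and -5.20 to -3.62 for Guca2b, Guca2b between media in EV organoids 1.49 to 2.55, Guca2a between media in BRAF organoids 3.96 to 5.76, and for Gucy2c -2.82 to -1.79 in selected against EV in ENSW, -1.76 to -1.61 in BRAF against EV in base and -2.02 to -1.01 in selected against BRAF in base medium. Over all genes, 358 calls between media in BRAF organoids (231 higher, 127 lower) became 665 with normexp (291 and 374), 572 with the authors' values (260 and 312), 215 without the filter, 616 with the replicate block, 4082 with the culture block, 725 with slide as a random block and 12 to 1720 with arrays left out. The 130 calls in selected against BRAF organoids in ENSW medium became 234 with the replicate block, 414 with slide as a fixed block and 44 to 119 with arrays left out. Of the signalling genes, 12 called between media in EV organoids became 5 without EV line 3 in base medium, and 2 in BRAF against EV organoids in ENSW medium became 5 with the replicate block. Over all genes the same settings changed 9036 calls to 6617 and 1332 calls to 1904. The median of all genes between media in EV organoids was 0.19 and became 0.03 with normexp. Of 82 called differences of 26 other genes named in the text, 0 changed sign, 40 lost their call under 1 or more settings and 42 kept it under all. Guca2b in selected organoids lay at the background, which limits its differences to bounds.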
